A study of Caenorhabditis elegans with 32 samples.

Results

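Gonadal small RNAs of Caenorhabditis elegans that had lacked MEG-3 and MEG-4 for more than 80 generations were compared with those of wild type. The comparison took 6 of the 32 libraries of the series, chosen by the names that the labels give to the samples. The long-term meg mutants (3 libraries) are strain BFF40, with the alleles meg-3(tm4259) and meg-4(ax2026) and the transgene mex-5::gfp::h2b::tbb-2. Wild type (3 libraries) is strain SX1263, which carries the same kind of transgene (the insertion mjIs134, on chromosome II, under the mex-5 promoter), so that both groups carry a germline histone reporter. A further 3 libraries, F15 meg mutants of the same mutant genotype, came from a cross of an SX1263 hermaphrodite with a BFF40 male. They were used to ask whether a level differed between mutants of this genotype. Long-term and F15 mutants differ in both the number of generations and the cross, which cannot be told apart. All of these gonads were dissected at 20 °C from worms fed OP-50 bacteria, and their RNA was extracted with the miRNeasy column kit. A further 3 SX1263 libraries, extracted with TRIZOL and called phenol-extracted wild type here, are set beside these without a test. Each mutant group represents 1 strain or 1 cross, and the labels do not say how many animals were pooled. They also do not state that replicates came from separate cultures, so the p-values measure the spread between these libraries, which may be technical.

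MEG-3 and MEG-4 are disordered proteins on which P granules, the RNA-rich germ granules of the worm, depend in the early embryo. Germ granules hold many components of the small RNA pathways, in which Argonaute proteins bind small RNAs, RNA-dependent RNA polymerases copy target transcripts into secondary small RNAs, and nuclear factors carry silencing on to later generations. The secondary small RNAs are antisense to their targets, so a count at a gene describes small RNAs matching that gene and is not the level of its mRNA. Values below are CPM, counts scaled to 1e+06 over the features of each library. In bulk gonads, fewer cells of a type and less RNA per cell cannot be told apart.

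The third long-term library was very shallow, with 126214 feature counts. The other libraries of the comparison held 2684285 and 7296664 feature counts (long-term) and 4470913 to 14871375 (wild type). A level of 3 counts, the smallest taken as detectable, stood for 23.8 CPM in the shallow library, for 1.12 and 0.411 CPM in the other long-term libraries and for 0.202 to 0.671 CPM in wild type. Intervals and floors of this kind cover counting error only. The share of aligned reads outside every feature was 19.0% to 20.0% in long-term libraries and 19.2% to 21.3% in wild type. Across the 10230 features tested, Pearson's r of log2 CPM was 0.950 between the deep long-term libraries, 0.840 and 0.856 between these and the shallow one, and 0.961 to 0.974 within wild type. Features are not independent replicates, so these values only describe the libraries. Between groups r was 0.850 to 0.866 for the deep long-term libraries and 0.763 to 0.774 for the shallow one.

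Small RNAs at the mutated genes were read first to test the genotypes given. In the long-term libraries meg-3 (WBGene00001569, X:1986469-1989607 in WBcel235) had 1.86, 4.66 and 0 CPM, against 10.3, 16.4 and 15.1 CPM in wild type. All long-term libraries lay below all wild-type libraries, although the shallow library could not have shown a level of this size. By edgeR's quasi-likelihood test, with Benjamini-Hochberg adjustment over all features, the log2 fold change of mutants over wild type, called the log2 ratio below, was -1.58 (SE 0.44, adjusted p 0.0126), and the call was lost without replicate 1 of the mutants (adjusted p 0.0865). At meg-4 (WBGene00016485, X:1682954-1686419) the long-term libraries had 17.5, 18.0 and 0 CPM, against 43.6, 40.3 and 40.6 CPM in wild type. These groups did not overlap either, but the mutants lay entirely below wild type at 38.9% of all features tested. The difference at meg-4 missed the threshold (log2 ratio -0.88, SE 0.67, adjusted p 0.348). It passed when the fit held these groups alone (adjusted p 0.0379) and without a filter on low counts (adjusted p 0.00538). The files count whole genes, so reads from the mutated and the intact parts of a gene are not separated. The gfp transgene had 47.7, 55.8 and 31.7 CPM in the long-term libraries, against 51, 65.8 and 75.3 CPM in wild type. The groups overlapped there, and gfp was not called (log2 ratio 0.06, SE 0.21, adjusted p 0.882, with a negative sign under 6 of 13 alternatives).

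Small RNA counts at 2759 of the 10230 features differed between long-term meg mutants and wild type (27% called, adjusted p under 0.05). Of these, 1177 features were higher in the mutants (11.5%) and 1582 were lower (15.5%). Among called features, losses were deeper than gains. The median size of the log2 fold change was 2.01 for lower and 1.07 for higher features, 793 lower and 291 higher features changed by more than 4-fold, and 194 lower and 91 higher features by more than 16-fold. These sizes are not free of the filter on low counts. A feature with small RNAs in long-term mutants alone passed it only if the shallow library reached the required count too. Features lost in the mutants could pass it through the deeper wild-type libraries. How far this set the sizes of gains and losses was not tested. CPM values of the groups did not overlap at 45.1% of all features tested, with the mutants entirely above wild type at 6.21% and entirely below at 38.9%. The scaling between libraries bore on this split, since TMM factors were 0.844 to 0.998 in long-term and 1.12 to 1.21 in wild-type libraries. With total counts in place of TMM the median log2 fold change of all features moved from 0.01 to -0.42, and 432 features were higher and 2602 lower. A small positive change below is therefore a change relative to the median feature. There were 645 higher and 1090 lower features without replicate 1 of the mutants, 666 and 1063 without replicate 2, and 723 and 1279 without replicate 2 of wild type.

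**Figure D1:**
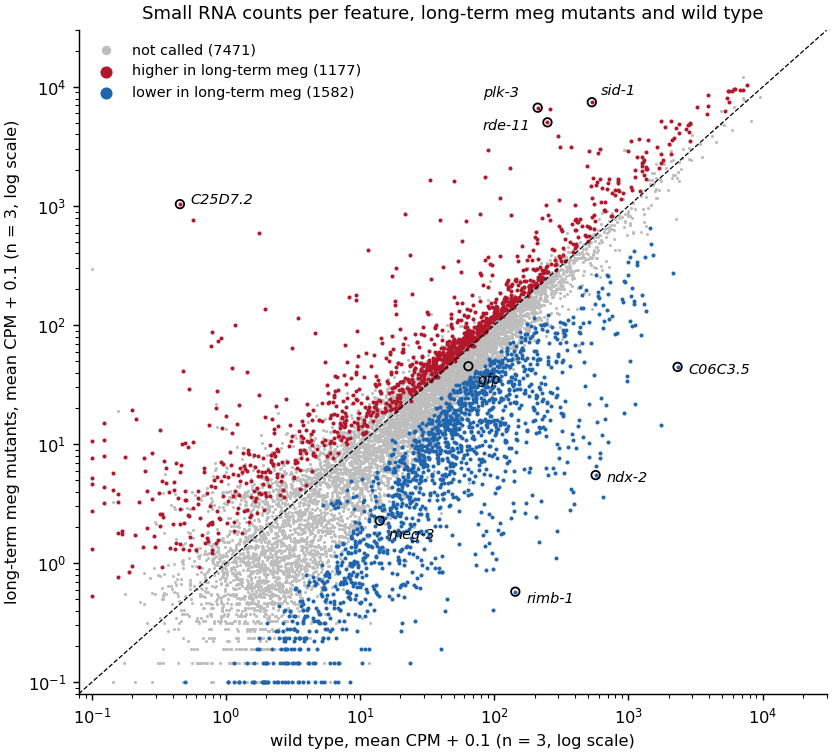
Mean CPM of each of the 10230 features tested, in long-term meg mutants on the vertical axis and in wild type on the horizontal axis (both log scales, 0.1 added, n = 3 libraries each). Red features were higher in the mutants (1177), blue features lower (1582) and grey features not called (7471); the dashed line marks equal levels, and labelled features are described in the text.

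The shallow library could be set against calls made without it. Leaving it out gave 1060 higher and 1547 lower features, of which 968 and 1475 were also called with it. Of the features called higher from the other libraries alone, the shallow library lay above all wild-type libraries at 654 of 1060 (61.7%), and at 412 of 588 (70.1%) where the mean was at least 50 CPM. Over all features tested it lay above wild type at 21.9%. Of those called lower it lay below all wild-type libraries at 1469 of 1547 (95.0%), of which 626 had no count in it. Where the mean was at least 50 CPM it lay below at 684 of 694 (98.6%), while over all features it lay below at 63.9%. The shares over all features were not split by level. The calls used the same wild-type libraries as this comparison, so the agreement is not independent of them and only describes the shallow library.

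The counts of the mutants were concentrated in fewer features. In the long-term libraries, 145, 131 and 135 features held 50% of all feature counts, against 317, 353 and 344 features in wild type. The ranges were far apart, with means of 137 ± 7.21 in long-term mutants and 338 ± 18.7 in wild type (SD, n = 3 each). Thinning every library to 126214 counts left this nearly as it was, at 137 ± 6.81 and 335 ± 18.1. The exact two-sided permutation test gave p = 0.1, the smallest that 3 against 3 libraries allow.

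Among RNA interference genes, small RNAs increased most at sid-1, which encodes the channel that imports double-stranded RNA, and at rde-11, a factor that acts with primary small RNAs in exogenous RNAi. At sid-1 (WBGene00004795, chromosome V, 5119970 to 5126916) the long-term libraries had 6335, 8172 and 7868 CPM, against 521, 549 and 531 CPM in wild type. At rde-11 (WBGene00023421, chromosome IV, 13105200 to 13106927) they had 4966, 4784 and 5411 CPM, against 172, 227 and 349 CPM in wild type. At both genes every mutant library, the shallow one included, lay far above every wild-type library. The log2 fold changes were 4.19 for sid-1 (SE 0.37, adjusted p 1.13e-06) and 4.73 for rde-11 (SE 0.57, adjusted p 2.09e-05), and they were 4.17 and 4.70 without the shallow library. A gap of 731 bases lies between rde-11 and B0564.2, which lies on the same strand (chromosome IV, 13107659 to 13111500). B0564.2 had 1472, 1788 and 1688 CPM in long-term mutants, against 30.4, 37.5 and 30.9 CPM in wild type (log2 ratio 6.03, SE 0.42, adjusted p 7.6e-08). Its exons overlap those of best-2 on the opposite strand, and whether reads were counted by strand is not given in the sources used here.

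Of the 18 tested genes of the Dicer, exogenous and systemic RNAi list, 3 rose and 3 fell, near the 11.5% and 15.5% of all features, with a median log2 fold change of 0.16 against 0.01 for all features. The list of 19 genes was drawn up with earlier results of these data known. The remaining gene that rose was eri-6, a helicase gene of the endogenous RNAi pathway, with 9079, 9076 and 9785 CPM in the long-term libraries and 6200, 5552 and 6041 CPM in wild type. Its groups did not overlap (log2 ratio 1.03, SE 0.22, adjusted p 0.00272), but it overlaps annotated exons of other features. The genes that fell were rde-8, an endonuclease of the RNAi pathway (-0.96, SE 0.25), eri-9 (-0.96, SE 0.32), and sid-2, an intestinal transporter of double-stranded RNA that had no count in any long-term library and 0.671 to 1.61 CPM in wild type. The sid-2 call was lost in 7 of 12 alternatives, the replicate block among them (adjusted p 0.0676). The summed CPM of the list was 21233, 22896 and 23872 in long-term libraries, against 7967, 7424 and 8079 in wild type, a difference made up mostly by sid-1, rde-11 and eri-6.

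**Figure D2:**
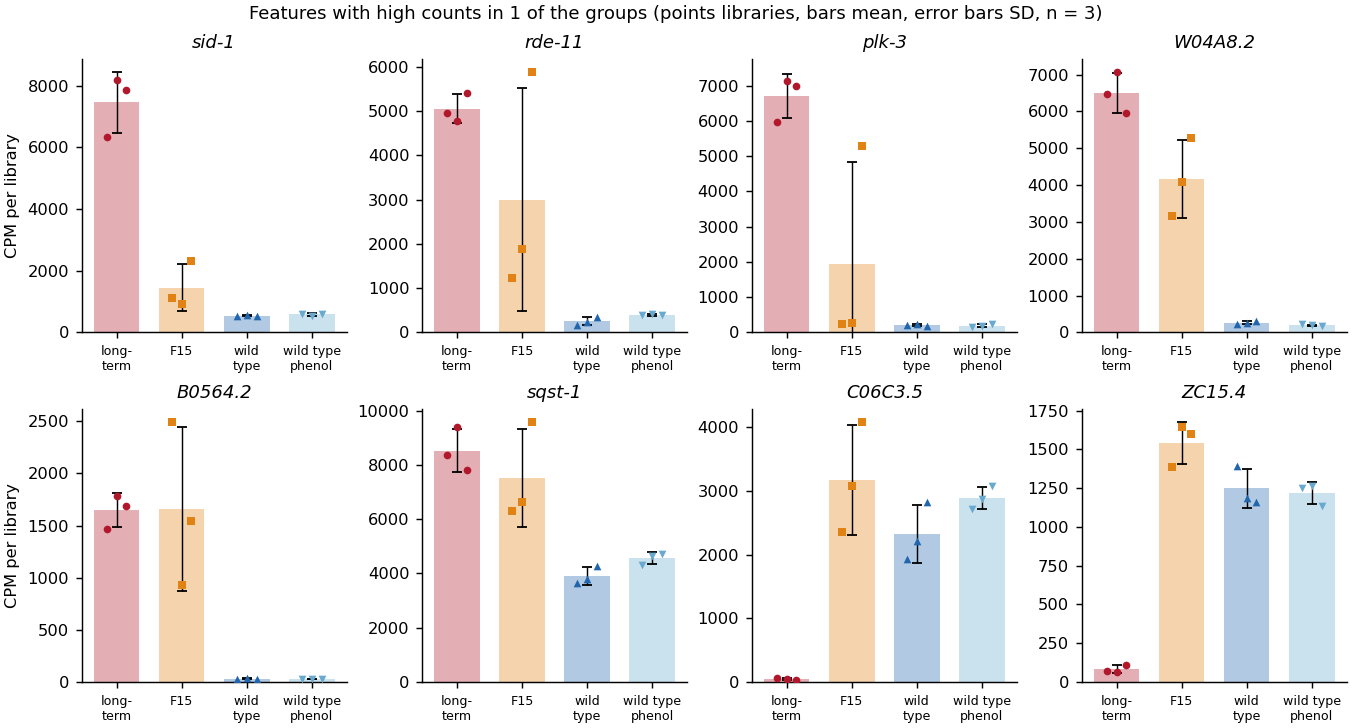
CPM per library of 8 features with high counts in long-term meg mutants, F15 meg mutants, column-kit wild type and phenol-extracted wild type (points, libraries; bars, mean; error bars, SD, n = 3; linear axes from 0). The long-term libraries of sid-1 lie between 6335 and 8172 CPM, and the wild-type libraries between 521 and 549 CPM; at C06C3.5 and ZC15.4 the long-term libraries lie below all others.

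Other genes of the small RNA machinery mostly moved less and in both directions, though the largest log2 fold change among Argonaute genes was 4.01. Of 17 Argonaute genes tested, 4 were higher and 2 lower, beside 11.5% higher and 15.5% lower of all features. The germline Argonautes wago-1 (0.99, SE 0.22, adjusted p 0.00342), csr-1 (0.75, SE 0.17, adjusted p 0.00377) and prg-1, the Piwi protein that binds piRNAs (0.62, SE 0.18, adjusted p 0.0171), were higher on the log2 scale, but at each the CPM of the groups overlapped. The fourth was alg-3, a sperm Argonaute, named here after its values were seen, with 5.96, 3.43 and 7.92 CPM in long-term mutants and 0, 0.670 and 0.403 CPM in wild type. Of the lower ones, ergo-1, which binds endogenous primary small RNAs, had 36.9, 47.4 and 31.7 CPM in long-term mutants and 99.5, 87.9 and 90.8 CPM in wild type (-0.74, SE 0.20, adjusted p 0.0114). The other was alg-5, a microRNA-class Argonaute (-0.48, SE 0.17, adjusted p 0.0465). Under total-count scaling the median of the list turned from 0.31 to -0.12, and 1 gene was higher and 2 were lower.

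The RNA-dependent RNA polymerase and mutator genes, which make and amplify secondary small RNAs, had 2 higher and 5 lower members of 16, beside 11.5% higher and 15.5% lower of all features; under total-count scaling none was higher and 7 were lower (median -0.43). The polymerase gene rrf-2 had 109, 65.5 and 87.2 CPM in the long-term libraries, against 484, 551 and 257.3 CPM in wild type (log2 ratio -1.91, SE 0.43, adjusted p 0.00378). The uridylyltransferase gene cid-1 had 65.9, 85.4 and 63.4 CPM against 184, 231 and 212 CPM (-1.08, SE 0.20, adjusted p 0.00104), and smut-1 had 20.1, 20.0 and 23.8 CPM against 81.6, 85.0 and 75.6 CPM (-1.55, SE 0.33, adjusted p 0.00259). The groups did not overlap at these genes. The higher ones were nyn-1, an RNase gene that acts with mutator proteins (0.64, SE 0.17), and ego-1, the germline polymerase (0.47, SE 0.16, CPM overlapping), whose call was lost in 10 of 13 alternatives. The median of the list was -0.01.

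The nuclear RNAi, piRNA pathway and germ granule lists are read against 11.5% higher and 15.5% lower among all features. Of 12 nuclear RNAi and inheritance genes, morc-1, a chromatin compaction factor, was higher (0.52, SE 0.17, adjusted p 0.0322, CPM overlapping) and hpl-1, a heterochromatin protein gene, was lower (-1.80, SE 0.47, adjusted p 0.0097). Of 14 piRNA pathway genes, 3 were higher (tofu-5, prg-1 and snpc-4, each with overlapping CPM) and 1 was lower. That was tofu-2, a piRNA processing factor, with 6.71, 6.58 and 15.8 CPM in long-term mutants and 31.8, 27.0 and 26.9 CPM in wild type (-1.57, SE 0.27, adjusted p 0.000546). Of 18 germ granule genes, none was higher and 2 were lower, meg-3 itself and pgl-2, a P granule protein gene (-0.97, SE 0.28, adjusted p 0.0155). The other P granule genes pgl-1 (272 ± 52.3 CPM in long-term mutants, 258 ± 40.2 in wild type) and glh-1, a Vasa-like helicase gene (396 ± 75.9 and 392 ± 27.8; SD, n = 3 each), were not called. Under total-count scaling no gene of these lists was higher. There, 4 nuclear RNAi genes, 1 piRNA pathway gene and 3 germ granule genes were lower, with medians of -0.28, -0.10 and -0.18.

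Outside the RNAi genes, the largest gains in CPM were at plk-3, W04A8.2 and sqst-1. The polo-like kinase gene plk-3 (WBGene00004044, chromosome IV, 7470860 to 7473209) had 5983, 7135 and 7004 CPM in the long-term libraries, against 219, 224 and 189 CPM in wild type (log2 ratio 5.37, SE 0.92, adjusted p 0.00047). W04A8.2 (chromosome I, 13840704 to 13841937) had 6474, 7067 and 5958 CPM against 222, 252 and 300 CPM (5.05, SE 0.41, adjusted p 3.09e-07); its exons overlap those of W04A8.4 on the opposite strand. At sqst-1, the gene of an autophagy receptor, small RNAs were abundant in wild type too, with 8372, 9386 and 7804 CPM in long-term mutants and 3633, 3791 and 4261 CPM in wild type (1.52, SE 0.26, adjusted p 0.000465). The groups did not overlap at any of these genes.

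Small RNAs appeared at some features where wild type had almost none. The naming rule took called features without overlap of the groups, with at least 50 CPM in the higher group and a call kept without each library. Among these, the largest fold changes were at 3 neighbouring pseudogenes of chromosome V. C25D7.2 (15037795 to 15038835) had 606, 1194 and 1315 CPM in the long-term libraries, against 0.224, 0.502 and 0.336 CPM in wild type, where these values rest on 9 counts in all. C25D7.14 (15034380 to 15035420) had 580, 897 and 816 CPM against 0.671, 0.335 and 0.403 CPM, and C25D7.12 (15032142 to 15034069) had 701, 560 and 531 CPM against 2.01, 2.01 and 1.01 CPM. The log2 fold changes were 11.79 (SE 0.82), 11.07 (SE 1.03) and 8.98 (SE 0.69), with adjusted p of 7.6e-08, 1.98e-06 and 1.76e-07. Gaps of 310 and 2374 bases separate these features, and reads shared by near-identical copies could have been split among them, so their separate values are uncertain.

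The other features of the naming rule had wild-type means of 0.668 to 21.5 CPM, except B0564.2, and long-term means of 66.2 to 861 CPM. They were the pseudogenes C08E3.2 (log2 ratio 7.45, SE 1.13) and C54E10.1 (6.64, SE 0.67), the astacin protease gene nas-32 (7.16, SE 0.88), AC3.5 (6.95, SE 1.04), and the solute carrier gene slc-17.4 (6.74, SE 1.02). C40A11.7 (5.69, SE 0.72), maph-9, a gene of a microtubule-associated protein (5.56, SE 0.93), and WBGene00018308 (6.79, SE 0.85), which has no entry in the annotation, completed them. All kept their call without each of the 6 libraries in turn, as the rule required. The exons of C40A11.7, maph-9 and slc-17.4 overlap those of other features.

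**Figure D3:**
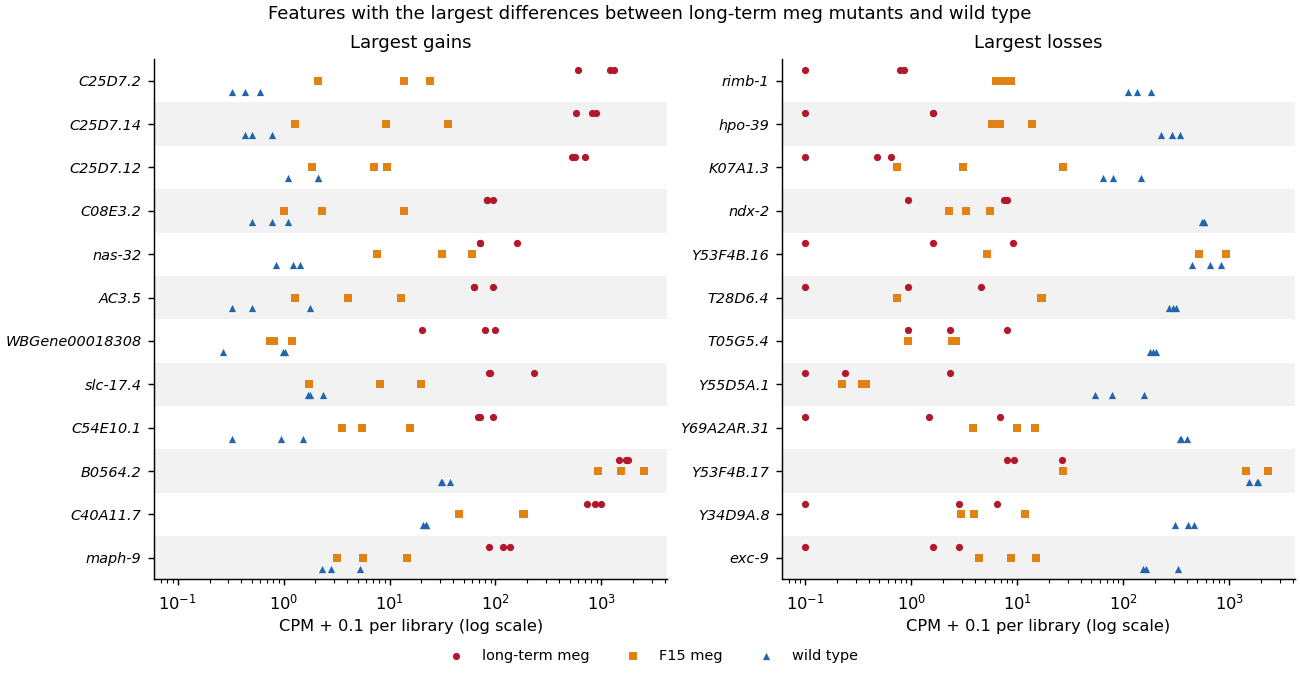
CPM per library (log scale, 0.1 added) of the 12 features with the largest gains and the 12 with the largest losses under the naming rule, in long-term meg mutants, F15 meg mutants and wild type. Long-term and wild-type libraries do not overlap at any of these features, because the rule required it. F15 libraries mostly lie between them or near one of them. At Y53F4B.16 and Y53F4B.17 the F15 library with 5.03 and 26.7 CPM is replicate 3.

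The deepest losses left genes nearly without small RNAs. The gene rimb-1, for a RIM-binding protein of synapses (WBGene00006513, chromosome III, 1788333 to 1807147), had 0.745, 0.685 and 0 CPM in the long-term libraries, against 184, 112 and 135 CPM in wild type (log2 ratio -7.21, SE 0.54, adjusted p 1.17e-07). At hpo-39 (chromosome V, 4573133 to 4573924) the long-term libraries had 1.49, 1.51 and 0 CPM, against 225, 291 and 346 CPM in wild type (-7.13, SE 0.68, adjusted p 2.14e-06). At ndx-2, a Nudix hydrolase gene (WBGene00003579, chromosome V, 2662964 to 2665003), they had 7.45, 0.822 and 7.92 CPM, against 579, 576 and 554 CPM (-6.92, SE 1.07, adjusted p 0.000188). In the shallow library 1 count is 7.92 CPM, so its values at these genes stand for 0 or 1 count.

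The remaining 9 features of the largest losses had long-term means of 0.307 to 14.4 CPM and wild-type means of 97.0 to 1742 CPM, with log2 fold changes of -7.12 to -6.12. Among them was exc-9, a gene needed for the excretory canal (-6.12, SE 1.16, adjusted p 0.00103). Y53F4B.16 (-6.79, SE 1.68, adjusted p 0.00653) and Y53F4B.17 (-6.31, SE 1.42, adjusted p 0.00345) lie 4082 bases apart on chromosome II. The others were K07A1.3, T28D6.4, T05G5.4, Y55D5A.1, Y69A2AR.31 and Y34D9A.8. The exons of K07A1.3, T05G5.4, Y55D5A.1, Y34D9A.8 and Y53F4B.17 overlap those of other features on the opposite strand. In phenol-extracted wild type, set beside them without a test, T05G5.4 had 24.2 ± 14.7 CPM and Y55D5A.1 31.1 ± 10.7 CPM, against 191 ± 12.8 and 97.0 ± 54.2 in column-kit wild type (SD, n = 3 each).

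The largest losses in CPM were at the pseudogenes C06C3.5 and ZC15.4, at Y53F4B.17, and at the genes pvf-1 and nhr-15. C06C3.5 (chromosome II, 9380106 to 9381355) had 54.8, 47.0 and 31.7 CPM in the long-term libraries, against 1934, 2209 and 2831 CPM in wild type (log2 ratio -5.17, SE 1.16, adjusted p 0.00352), and overlaps exons of srh-48 and C06C3.13 on the opposite strand. ZC15.4 (chromosome V, 20302135 to 20303443) had 73.0, 63.0 and 111 CPM against 1396, 1184 and 1164 CPM (-3.64, SE 0.36, adjusted p 2.91e-06). At pvf-1, a growth factor gene of the PDGF and VEGF family, levels were 375, 231 and 214 CPM against 2797, 2183 and 1471 CPM (-2.56, SE 0.47, adjusted p 0.000747). At nhr-15, a nuclear hormone receptor gene, they were 114, 107 and 174 CPM against 1288, 1311 and 1427 CPM (-3.04, SE 0.51, adjusted p 0.000366). Long-term libraries lay below wild type at all of these features.

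Among gene families, most tested collagens fell. Collagens build the cuticle, and 16 of the 156 genes of this family passed the filter on low counts. Of these, 13 were lower and none was higher, beside 15.5% lower and 11.5% higher of all features. The median log2 fold change was -4.41. It was -4.02 with col-2 and col-154, which had no count in any long-term library, at the bound set by 3 counts over the group. A filter on low counts keeps genes with small RNAs in at least some column-kit group, so these 16 do not stand for the family. Summed over the family, the long-term libraries had 126, 48.1 and 166 CPM, against 2654, 2612 and 2302 CPM in wild type. By adjusted p the leading genes were col-38 (1.86, 1.10 and 0 CPM against 91.0, 122 and 94.4 CPM; -5.80, SE 0.74), col-60 (4.47, 2.19 and 7.92 CPM against 123, 130 and 97.8 CPM; -4.74, SE 0.67) and col-162 (-7.11, SE 1.18).

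Counts for other large families stand beside 11.5% higher and 15.5% lower of all features. Of 158 tested F-box genes, whose proteins select substrates for degradation, 42 were lower and 19 higher (median -0.78). Single members went strongly the other way, such as fbxa-136 with 1508, 1897 and 1830 CPM in long-term mutants and 104, 77.8 and 76.1 CPM in wild type (4.72, SE 0.59, adjusted p 2.76e-05). Their summed CPM was 13342 ± 394 in long-term mutants and 12267 ± 483 in wild type (SD, n = 3 each). Of 72 tested chemoreceptor genes, 13 were lower and 4 higher (median -0.64), and the sum was 999 ± 151 CPM in long-term mutants against 2415 ± 103 CPM in wild type. The clearest was sra-35, with 10.1, 6.03 and 15.8 CPM in long-term mutants and 421, 361 and 379 CPM in wild type (-5.15, SE 0.76, adjusted p 0.000139). Of 37 tested C-type lectin genes, 6 were lower and 5 higher, close to the shares of all features (median -0.48), with sums of 318 ± 18.9 CPM in long-term mutants and 839 ± 50.6 CPM in wild type. The neighbours clec-256 and clec-257, 421 bases apart on chromosome V, had 6.33 to 23.8 CPM in the long-term libraries and 0 to 0.671 CPM in wild type. Gene families of near-identical members share reads, so values of single members are uncertain.

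**Figure D4:**
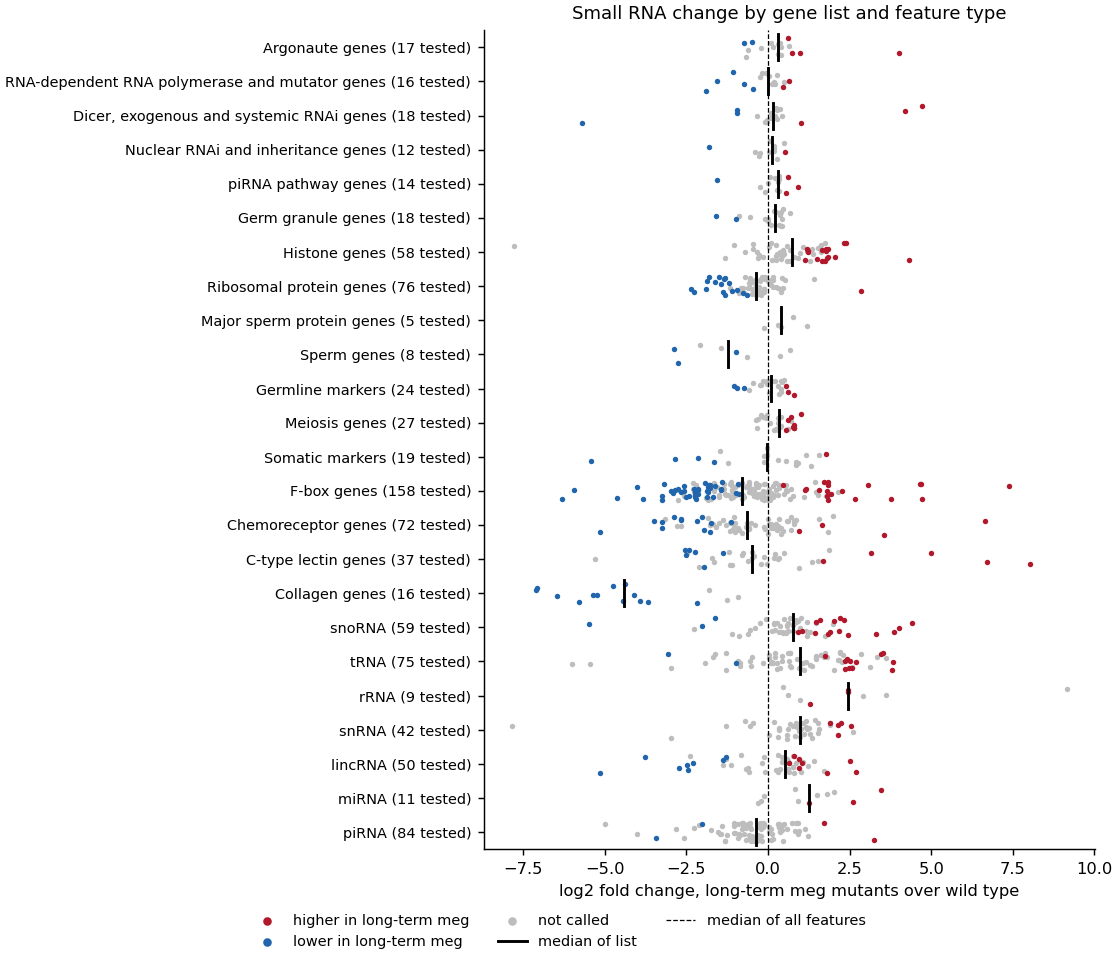
Log2 fold change of long-term meg mutants over wild type for each tested member of 17 gene lists and 7 feature types (red, higher; blue, lower; grey, not called; bars, median of the list; dashed line, median of all features at 0.01). Collagen genes have a median of -4.41 and ribosomal protein genes of -0.37, and histone genes of 0.74.

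Calls at ribosomal protein genes were mostly losses, and all calls at histone genes were gains under TMM scaling. Of 76 ribosomal protein genes, 17 were lower and 1, rpl-25.1, was higher with overlapping CPM (median -0.37), beside 15.5% lower and 11.5% higher of all features. Under total-count scaling 34 were lower and none was higher (median -0.80). The summed CPM of the list was 1817 ± 267 CPM in long-term mutants and 3573 ± 367 CPM in wild type (SD, n = 3 each). The large-subunit gene rpl-20 had 10.1, 9.18 and 7.92 CPM in long-term mutants and 74.3, 77.2 and 45.1 CPM in wild type (-2.35, SE 0.37, adjusted p 0.000208), and rps-4 and rpl-33 fell by 1.38 and 1.82 on the log2 scale. Of 58 tested histone genes, 17 were higher and none was lower (median 0.74), with sums of 4791 ± 398 CPM against 3271 ± 83.3 CPM. Under total-count scaling 10 histone genes were higher and 2 were lower, with a median of 0.32. The leading ones were a his-14 copy (1.86, SE 0.34), his-4 (2.32, SE 0.45) and his-68 (1.22, SE 0.25), members of a multigene family whose single values are uncertain.

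Calls at genes expressed in germ cells are likewise set against 11.5% higher and 15.5% lower of all features. Of 27 meiosis genes, 8 were higher and none lower (median 0.34), among them the cohesin gene coh-4, with 212, 169 and 254 CPM in long-term mutants and 133, 157 and 108 CPM in wild type (1.02, SE 0.20, adjusted p 0.0011). Under total-count scaling the median turned to -0.07, with 1 gene higher and 3 lower. Of 24 germline markers, 3 were higher and 3 lower, close to the shares of all features (median 0.09). With total counts 0 of these markers were higher and 6 were lower (median -0.35). The Notch receptor gene glp-1 fell to 50.3, 42.2 and 39.6 CPM in long-term mutants, against 103, 112 and 135 CPM in wild type (-0.94, SE 0.18, adjusted p 0.00105), and oma-2, an oocyte maturation gene, fell too (-1.03, SE 0.26). The meiotic regulator gld-1 was higher (0.61, SE 0.16, CPM overlapping). Of 34 sperm genes 8 were tested and 3 were lower, namely spe-41 (-2.75, SE 0.51), spe-15 (-2.88, SE 0.54) and spe-44 (-0.99, SE 0.31). Of 31 major sperm protein genes 5 were tested and none was called, and their sum was 5.34 to 12.3 CPM in long-term libraries and 1.34 to 4.98 CPM in wild type.

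Small RNAs at somatic markers, genes chosen for tissues other than the germline, were low in both groups. Whether such small RNAs came from somatic tissue in the dissections was not tested. The 38 markers summed to 265, 290 and 230 CPM in long-term libraries and 269, 282 and 308 CPM in wild type, and these ranges overlapped. Of the 19 tested, 1 was higher and 4 were lower, beside 11.5% and 15.5% of all features. The higher one was unc-119, a neuronal gene (1.79, SE 0.33, adjusted p 0.000758). It had 173, 144 and 79.2 CPM in long-term libraries and 37.6, 49.7 and 76.9 CPM in wild type. The overlap of the sums rests on unc-119, since without it the long-term sums lie below those of wild type. The 4 lower ones were lev-11, a tropomyosin gene of muscle (-1.65, SE 0.33), unc-54, a muscle myosin gene (-2.84, SE 0.80), lim-7 of the gonadal sheath (-2.14, SE 0.60), and the collagen gene dpy-13, which had no count in the long-term libraries and was named after its values were seen. Small RNA counts do not measure the mRNA of these markers, and their part in the results was not tested.

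**Figure D5:**
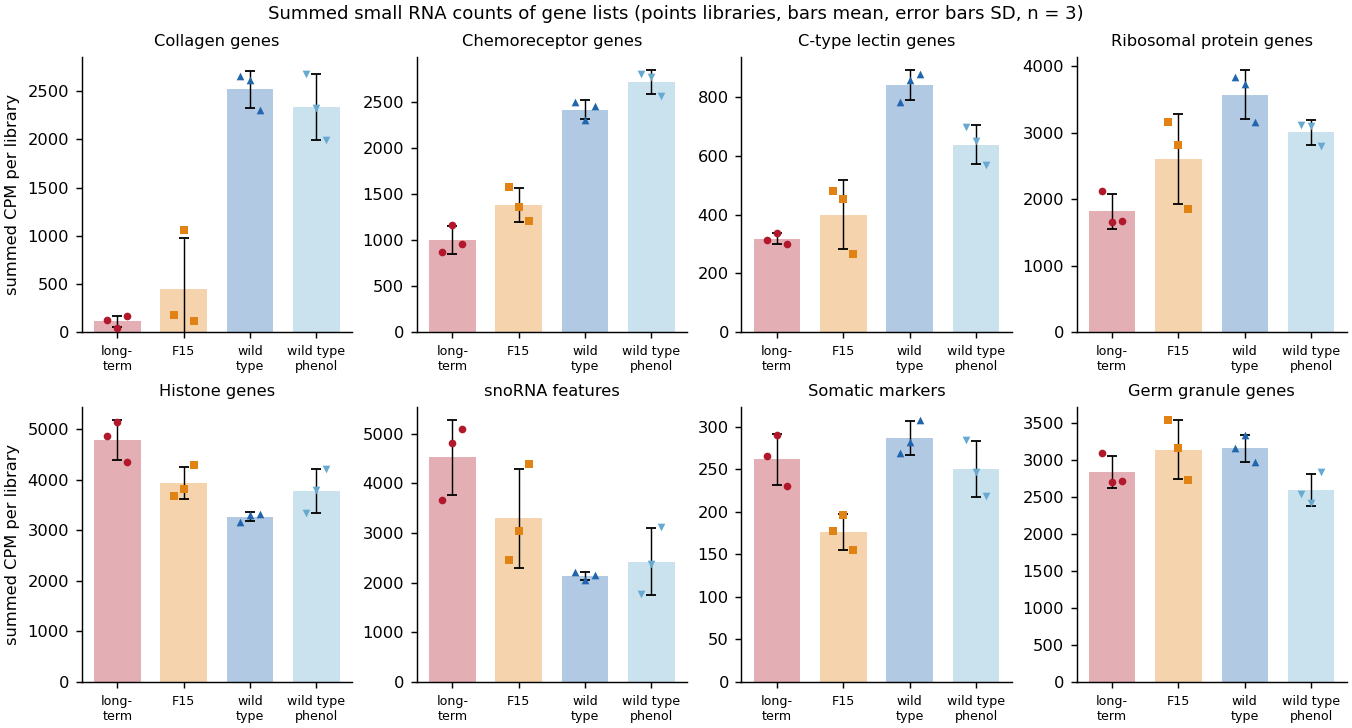
Summed CPM per library of 8 gene lists or types in long-term meg mutants, F15 meg mutants, column-kit wild type and phenol-extracted wild type (points, libraries; bars, mean; error bars, SD, n = 3; linear axes from 0). Collagen genes sum to 48.1 to 166 CPM in long-term mutants and 2302 to 2654 CPM in wild type. The sums of somatic markers overlap between these groups only with unc-119 included, a gene that was higher in the mutants.

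Structural RNA genes are given beside 11.5% higher and 15.5% lower of all features. Of 59 tested snoRNA genes, 16 were higher and 3 lower (median 0.76), and the type took 0.367%, 0.481% and 0.509% of the feature counts of the long-term libraries, against 0.221%, 0.206% and 0.214% in wild type. Among these snoRNAs, chosen after their values were seen, F43A11.8 had 576, 900 and 792 CPM in long-term mutants and 35.8, 63.6 and 84.3 CPM in wild type, and C14E2.12 had 303, 380 and 491 CPM against 18.1, 21.3 and 31.4 CPM. Of 75 tRNA genes 12 were higher and 2 lower (median 0.97), of 42 snRNA genes 5 were higher and none lower (median 0.99), and of 9 rRNA genes 3 were higher. The rRNA share was 0.392%, 0.609% and 0.311% in long-term libraries and 0.259%, 0.334% and 0.218% in wild type, which overlapped. Fragments of these RNAs can reflect RNA quality as well as small RNAs, and their part in other results was not tested.

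Protein-coding genes took a smaller share of the counts in the mutants, 78.9% ± 0.591 against 81.5% ± 0.430 in wild type, and pseudogenes a larger one, 13.9% ± 0.227 against 12.4% ± 0.289 (SD, n = 3 each). Neither share overlapped between the groups. As a share of aligned reads the difference for protein-coding genes was -1.48 points in place of -2.58, and the exact permutation p was 0.3. Over 11 feature types the exact permutation test gave p = 0.1, the smallest possible, for protein-coding genes, pseudogenes, lincRNAs, antisense RNAs and snoRNAs, and p = 0.2 to 0.8 for the other types (adjusted p 0.22 to 0.8). Among the 50 lincRNAs tested, 8 were higher and 8 lower (16% each), near the 11.5% higher and 15.5% lower of all features. One of them, linc-6 (chromosome X, 1982710 to 1982883), lies 3585 bases from meg-3 and was chosen for that position after its values were seen. It had 3244, 3186 and 2686 CPM in the long-term libraries, against 656, 674 and 519 CPM in wild type (log2 ratio 2.69, SE 0.27, adjusted p 3.69e-06). Its exons overlap those of F52D2.14 on the same strand.

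Few microRNA and piRNA genes could be tested in these counts, 11 of 258 and 84 of 15363. Their calls are set against 11.5% higher and 15.5% lower of all features. Of the piRNA genes tested, 2.38% were called in each direction. Called microRNA genes were cel-mir-8196b (1.27, SE 0.45, adjusted p 0.0425), cel-mir-8199 (3.46, SE 1.17, adjusted p 0.036) and cel-mir-356a (2.62, SE 0.94, adjusted p 0.046), all higher; the call was lost in 8 of 13, 4 of 12 and 7 of 13 alternatives. At cel-mir-8199 and cel-mir-356a the CPM of the groups overlapped. Of the piRNA genes, 2 were higher (21ur-6729 and 21ur-12084) and 2 lower (21ur-12693 and 21ur-12846). The CPM of the groups overlapped at both higher ones, and the calls of 21ur-12084 and 21ur-12846 were lost in 4 of 13 and 6 of 12 alternatives. Summed over the type, piRNA genes had 294, 395 and 586 CPM in long-term libraries and 587, 497 and 741 CPM in wild type. Reads on the opposite strand may enter these counts, so they do not show how abundant mature microRNAs or piRNAs were.

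Long-term and F15 meg mutants were compared directly, without wild type, to ask which levels differed between these mutants of the same genotype. They were kept for more than 80 and for 15 generations, but the F15 mutants also came from a cross with a wild-type hermaphrodite. Generations and cross therefore cannot be told apart here. Long-term and F15 mutants differed at 534 of 10230 features (5.22%), 227 of them higher (2.22%) and 307 lower (3%) in long-term mutants. The F15 libraries were not alike. Replicate 3 of F15 had r of 0.914 and 0.937 with the deep long-term libraries and 0.868 to 0.893 with wild type, while replicates 1 and 2 had 0.910 to 0.930 with the deep long-term libraries and 0.927 to 0.941 with wild type. At plk-3, for example, the F15 libraries had 227, 268 and 5295 CPM, and at rde-11 1235, 1884 and 5880 CPM. Without replicate 3 of F15, 280 features were higher and 658 lower in long-term mutants. The total was 205 and 344 features without F15 replicates 1 and 2. The balance turned to 108 higher and 74 lower without long-term replicate 1, to 104 and 80 without replicate 2, and to 133 and 85 of 218 with these groups alone, while 1320 features were called without a filter on low counts.

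At some features the direct comparison found no difference. At B0564.2 the F15 libraries had 2497, 932 and 1544 CPM, which surrounded the long-term values (log2 ratio of long-term over F15 0.23, SE 0.34, adjusted p 0.792). W04A8.2 had 3147, 4074 and 5270 CPM in F15 mutants (0.82, SE 0.34, adjusted p 0.18), all below the long-term values, and ndx-2 had 3.2, 5.4 and 2.19 CPM (0.26, SE 1.06, adjusted p 0.951). A p above the threshold does not show that these levels were equal. Others had a level in F15 mutants near that of wild type. C06C3.5 had 2354, 3074 and 4087 CPM in F15 mutants (-5.84, SE 1.20, adjusted p 0.00828), and ZC15.4 had 1385, 1643 and 1597 CPM (-4.12, SE 0.37, adjusted p 3.57e-06), so that the loss seen in long-term mutants was not present at those pseudogenes in F15 mutants. The pseudogene C25D7.2, at 24.0, 13.7 and 2.01 CPM in F15 mutants, stood between the groups (6.63, SE 0.62, adjusted p 5.9e-06).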

How the data were processed

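The members and gene lists were chosen with earlier results of these data known. Per the labels' protocols, small RNA libraries were made from dissected gonads with the NEBNext small RNA kit. The authors deposited raw counts, 1 file per library with 46779 features and 5 closing tallies (reads not aligned, without a feature or ambiguous), which were left out of library sizes and tests. Per the submitters' processing notes, cutadapt, FastQC, HTSeq, DESeq2 and the build ce11 were used; the aligner, the treatment of reads with several matches and the strand setting are not given in the sources used here. Names, types and coordinates came from Ensembl release 115 (WBcel235), in which 175 features had no entry.

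The 10230 features that reached 10 counts in 3 or more of the 21 column-kit libraries were kept. All 7 column-kit groups were fitted together with edgeR's quasi-likelihood test on TMM-scaled counts, with Benjamini-Hochberg adjustment over all features and a threshold of 0.05. The phenol libraries were not fitted. The log2 CPM behind the correlations carry a prior count of 2, while fold changes were fitted with the default settings of edgeR. The SE of a fold change is the absolute log2 fold change over the square root of F. Features without any count in 1 group are given no fold. Feature counts per library were 126214 to 14871375. The detection floor is 3 counts.

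Named were the mutated genes with gfp, sid-1 and rde-11. To these were added, among called features without overlap, with at least 50 CPM in the higher group and a call kept without each of the 6 libraries, the 12 largest fold changes in each direction. The 5 largest changes in mean CPM in each direction and up to 3 called members per list, microRNAs and piRNAs and direction by adjusted p completed the rule. Alternatives were other scalings, filters, DESeq2, a fit of the compared groups alone, a replicate block and leaving out each library. The fit was tested on simulated data. R 4.3.3, edgeR 4.0.16, DESeq2 1.42.0, Python 3.11.15, pandas 2.3.3 and scipy 1.17.1 were used.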

Additional observations from a re-analysis of the deposited data

Results flagged for a closer look

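At 17 of 36 features named by size or as mutated or RNAi genes, long-term and F15 meg mutants, which have the same genotype, differed by the direct test of edgeR (adjusted p under 0.05), beside 5.22% of all features. Most of the 36 were chosen for their size against wild type, so their share is not read against that background. All values here are log2 fold changes of long-term over F15. They were positive at sid-1 (2.49, SE 0.35, adjusted p 0.000427), C25D7.2 (6.63), C25D7.14 (6.03), C25D7.12 (6.97), C08E3.2 (4.28), AC3.5 (3.88), WBGene00018308 (6.46), slc-17.4 (4.24), C54E10.1 (3.5), C40A11.7 (2.79) and maph-9 (4.18). They were negative at rimb-1 (-3.10), Y53F4B.16 (-6.37), Y53F4B.17 (-5.85), C06C3.5 (-5.84), pvf-1 (-2.40) and ZC15.4 (-4.12). At the sid-1 gene the long-term libraries had 6335, 8172 and 7868 CPM and the F15 libraries 1099, 911 and 2317 CPM, against 521, 549 and 531 CPM in wild type. At C40A11.7 they had 876, 723 and 982 CPM, and the F15 libraries 45.6, 185 and 180 CPM. Replicate 3 of F15 stood apart from the others at Y53F4B.16 and Y53F4B.17, with 5.03 and 26.7 CPM, against 937 and 523 CPM and 2329 and 1439 CPM in F15 replicates 1 and 2. The F15 mutants came from a cross with a wild-type hermaphrodite, so the number of generations and the cross cannot be told apart.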

How the results depend on the processing

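Of 107 named features, 69 kept their direction and their side of the threshold in every alternative run; the rest changed in at least 1. Total-count scaling turned the balance of long-term mutants against wild type to 432 higher and 2602 lower features. Leaving out 1 library at a time gave 1729 to 2607 called features, 645 to 1060 higher and 1063 to 1547 lower. Long-term against F15 mutants depended more on the setting: 940 features were called with total-count scaling (765 lower), 218 with these groups alone (133 higher, 85 lower) and 1320 without a filter (543 higher, 777 lower), and 182 to 938 with 1 library left out (101 to 280 higher, 74 to 658 lower). The log2 fold change of gfp, 0.06, changed sign to -0.014 with DESeq2, -0.045 with RLE scaling, -0.025 without a filter and -0.39 with total counts, and ranged from -0.19 (without replicate 2 of the long-term mutants) to 0.17 with 1 library left out. The ncRNA share difference, 0.0317 points, ranged from -0.0646 to 0.165 points, with -0.00511 and -0.0431 in between. The cause of these changes was not tested. Same-numbered long-term and wild-type libraries had deviations with r of 0.0783, -0.0133 and -0.0282, and differently numbered ones -0.103 to 0.114. With F15 libraries these were 0.146, 0.0121 and 0.0773, and -0.139 to 0.0458. The shallow library enters these deviations, so they cannot exclude a pairing by number. A replicate block gave 2614 features (1058 higher, 1556 lower), and 537 against F15. The shallow library limits statements below 23.8 CPM.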

Other observations

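On the X chromosome higher calls outnumbered lower ones. Of 1125 tested X-linked features, 180 were higher (16%) and 93 lower (8.27%) in long-term mutants relative to wild type, with a median log2 fold change of 0.37. On the autosomes 9.47% to 11.8% were higher and 14.3% to 18.2% lower. No test of the difference between chromosomes was run. Without the shallow long-term library the X-linked shares were 14% higher and 7.73% lower, and with total counts in place of TMM they were 8.18% and 13.4%, so that the excess of higher calls depends on the scaling.

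The next tested feature on the chromosome was also higher for 184 of 1043 higher features (17.6%, against 11.5% of all features), and also lower for 281 of 1378 lower features (20.4%, against 15.5%). Neighbouring features can share reads or overlap, and the part of this in these shares was not tested.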
